A study of Mus musculus with 6 samples.

Results

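The calcium/calmodulin-dependent kinases of the mouse brain were examined in RNA sequencing libraries from Mettl5 knockout and wild-type animals. The set was chosen by gene symbol from the family and comprised Camk2a, Camk2b, Camk2d, Camk2g, Camk4, Camk1, Camk1d, Camkk1 and Camkk2. All 9 were found in the deposited table of 18491 genes, and all 9 were among the 12885 genes whose mean reached 1 FPKM and that entered the test. There were 2 groups of brain samples, 3 homozygous for the Mettl5 knockout (Mettl5-/-) and 3 wild type, all from C57BL/6N mice at postnatal day 28. Mettl5 encodes the methyltransferase that places N6-methyladenosine on the RNA of the small ribosomal subunit. Expression was given as FPKM, a fragment count scaled to transcript length and library size, so levels can be set side by side between genes. The labels do not say how the knockout allele was made, nor whether each library came from its own animal. The p-values thus reflect the variation among these samples alone, and that variation may be technical.

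Calcium entering a neuron binds calmodulin, and calcium-loaded calmodulin relieves the autoinhibition of these kinases. CaMKII, built as a multimer from the products of Camk2a, Camk2b, Camk2d and Camk2g, is abundant at excitatory synapses and is best known for its part in long-term potentiation, the lasting strengthening of a synapse. CaMKI and CaMKIV need a further phosphorylation by the upstream kinases CaMKK1 and CaMKK2, and CaMKIV then acts in the nucleus on transcription factors such as CREB. CaMKK2 also phosphorylates AMPK, the energy-sensing kinase.

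Mettl5 itself had 2.79, 3.81 and 2.40 FPKM in knockout libraries 1, 2 and 3, against 4.78, 5.16 and 5.92 FPKM in wild-type libraries 1, 2 and 3, so the transcript was lower in every knockout library and still present. Its log2 fold change was -0.66 (SE 0.15), with a limma adjusted p of 0.79. Among 10 lists of brain cell markers, knockout libraries 2 and 3 and wild-type library 2 stood apart. In knockout library 2 the 6 cerebellar granule cell markers summed to 357.7 FPKM and the 4 Purkinje cell markers to 506.0 FPKM, against at most 43.5 and 72.5 FPKM in any other library. Knockout library 3 had 2194.7 FPKM over the 10 oligodendrocyte markers and 28.4 FPKM over the 6 thalamic markers, against at least 5610.0 and 91.0 FPKM elsewhere. The oligodendrocyte sums of all 3 knockout libraries, 2194.7 to 5901.4 FPKM, lay below those of all 3 wild-type libraries, 6656.7 to 7883.2 FPKM. Knockout library 3 also had the highest sum of the 6 forebrain excitatory neuron markers, 872.6 FPKM. In wild-type library 2 the 6 markers of striatal medium spiny neurons summed to 137.1 FPKM, the highest of all libraries. That sum was 43.9 and 36.1 FPKM in wild-type libraries 1 and 3, and knockout library 2 had the next highest. All marker genes on the lists were detected in every library except the Purkinje cell gene Pcp2, listed at 0 in wild-type library 3. In a bulk sample, fewer cells of a type and less RNA per cell cannot be told apart.

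The 9 genes covered a wide span of levels with a clear order at the top. Averaged over all 6 libraries, Camk2a stood at 753 ± 167 FPKM (SD), rank 24 of the 12885 genes tested, and Camk2b at 219 ± 19 FPKM, rank 224. Camk2g followed at 75.4 ± 5.3 FPKM. These 3 genes kept that order in all 6 libraries, and their ranges did not overlap. The other 6 genes averaged between 28.3 and 45.3 FPKM, and each overlapped its neighbours in rank among the 6. In descending order of mean they were Camkk2, Camkk1, Camk2d, Camk1, Camk4 and Camk1d. Camk2d and Camk1 could not be ordered, with means of 31.2 ± 5.0 and 31.1 ± 2.9 FPKM, Camk2d being the higher in 3 libraries of 6. The same held for Camk4 and Camk1d, at 29.7 ± 10.6 and 28.3 ± 5.3 FPKM, Camk4 being the higher in 3 of 6. Camk4 spread most, with its highest library at 2.31 times its lowest, and Camk2g least, at 1.18 times.

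**Figure D1:**
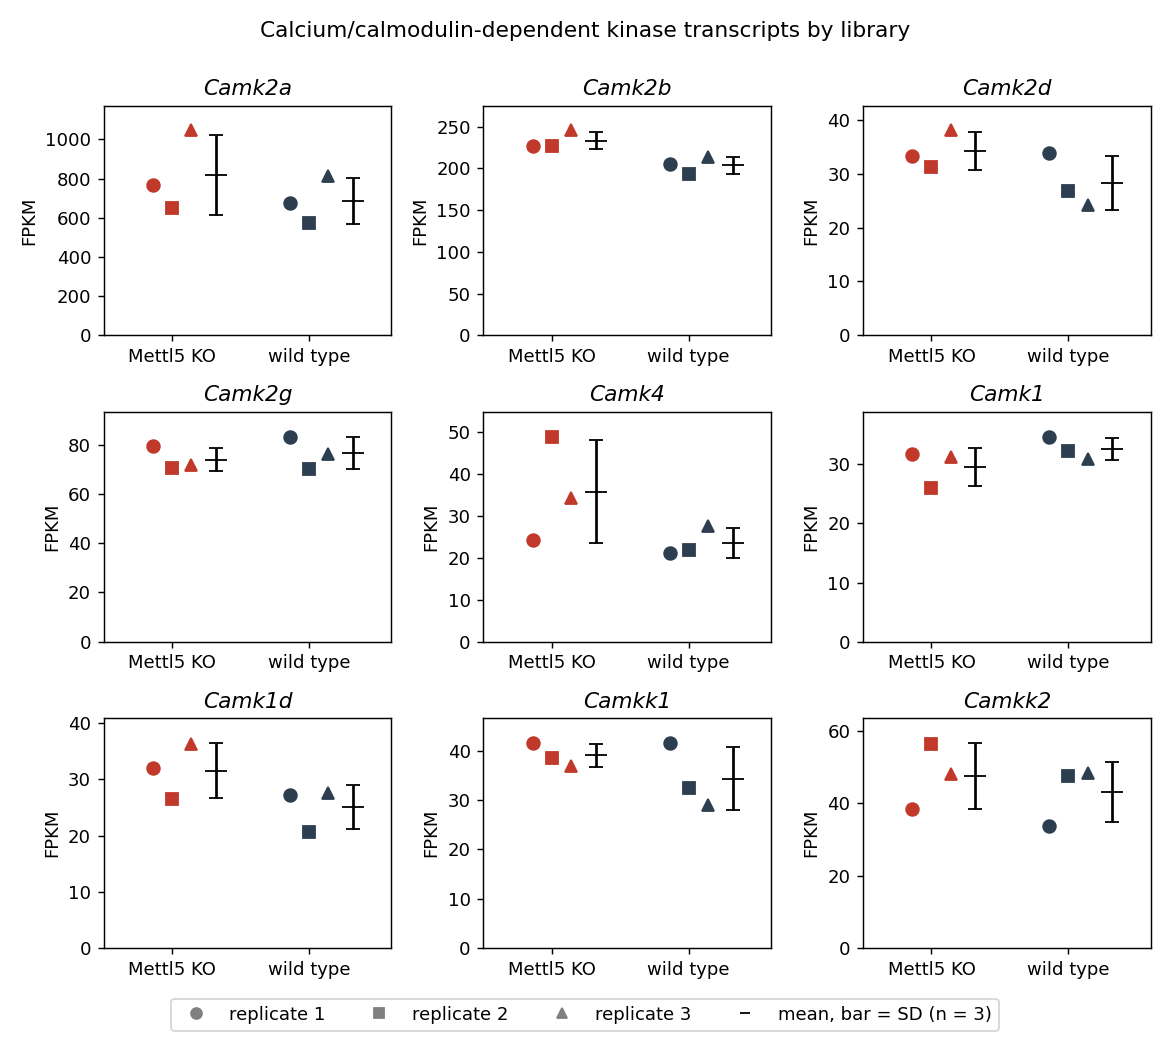
FPKM of the 9 kinase genes in each library, with Mettl5 KO on the left and wild type on the right of every panel; marker shapes give the replicate number and bars give mean ± SD (n = 3). Only Camk2b has all 3 knockout values (227.10 to 245.69 FPKM) above all 3 wild-type values (193.07 to 213.20 FPKM).

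The question asked of each gene was whether its transcript level differed between knockout and wild-type brains. No member passed a Benjamini-Hochberg adjusted p of 0.05 in limma over all genes tested, where 0.0% of genes passed, and the members' adjusted p-values lay between 0.79 and 0.944. The knockout mean was above the wild-type mean for 7 of the 9 genes and below it for Camk2g and Camk1, with the signs of Camkk2 and Camk2g turning under 3 of 15 alternatives each. The median log2 fold change of the 9 was 0.20, against -0.0032 over all genes tested. Unadjusted p-values under 0.05 were reached by 0 members, against 2.37% of genes tested on the higher side and 3.69% on the lower side. That is 305 genes higher and 475 lower as deposited, and 430 and 377 after each library was scaled to the same total. At that threshold 1 member, Camk2b, appeared after this scaling, and also after quantile normalization, where 340 genes were higher and 470 lower. With array weights there were 2, Camk2b and Camk1d, where 606 genes were higher and 755 lower. Leaving out knockout library 1 brought in Camk4, where 214 genes were higher and 417 lower. Without knockout library 2 it was Camk1d (383 genes higher and 663 lower). Without wild-type library 1 Camk2d and Camkk1 came in (483 genes higher and 624 lower). The 3 knockout values lay above the 3 wild-type values for 1 member, Camk2b, where 5.48% of all genes did so, and below them for 0 members, where 6.43% did.

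The samples carry replicate numbers, and same-numbered knockout and wild-type libraries deviated together across genes. Within all 3 same-numbered pairs the knockout library was the higher for 5 members, Camk2a, Camk2b, Camk4, Camk1d and Camkk1, against 19.5% of all genes tested. It was the lower in all 3 pairs for 0 members, against 20.5%. With the replicate number as a block in limma, 4 members had an unadjusted p under 0.05, all higher in the knockout, against 6.08% of genes higher and 8.22% lower. None of the 4 passed the adjustment over all genes in the blocked limma fit, where the adjusted p was 0.285 for Camk1d, 0.296 for Camk2a, 0.298 for Camk2b and 0.343 for Camk4.

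**Figure D2:**
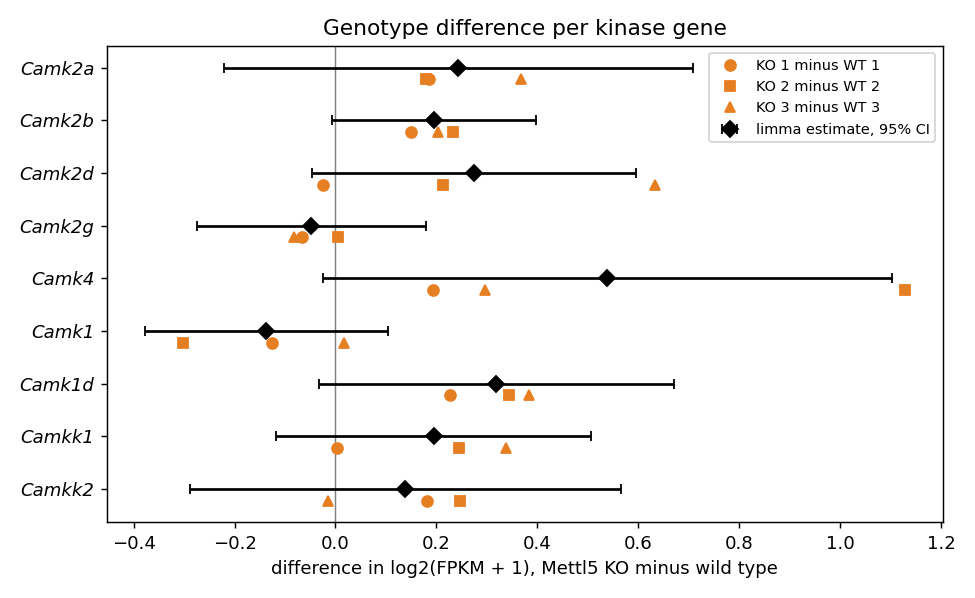
Genotype difference in log2(FPKM + 1), Mettl5 KO minus wild type, for each kinase gene (x axis, log2 units); black diamonds are the limma estimates with 95% confidence intervals and orange symbols are the differences within each same-numbered pair. Every confidence interval includes 0, while for Camk2a, Camk2b, Camk4, Camk1d and Camkk1 all 3 pair differences lie above 0.

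Among the CaMKII genes, Camk2a encodes the alpha subunit, which predominates in forebrain excitatory neurons (gene ID 12322, chromosome 18, 60925307 to 60988152, GRCm38). Camk2a had 765.93, 648.41 and 1046.50 FPKM in knockout libraries 1, 2 and 3, against 673.55, 572.63 and 811.33 FPKM in wild-type libraries 1, 2 and 3. Library 3 was the highest and library 2 the lowest in both genotypes, and the genotypes overlapped. The knockout mean was 820 ± 205 FPKM and the wild-type mean 686 ± 120 FPKM (SD, n = 3 each), a ratio of 1.20. The log2 fold change was 0.24 (SE 0.20; 95% confidence interval -0.22 to 0.71; limma adjusted p 0.837). It was 0.05 without knockout library 3, 0.40 without knockout library 2, 0.12 without wild-type library 2 and 0.37 without wild-type library 3.

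Camk2b encodes the beta subunit, which binds filamentous actin and brings the holoenzyme to the cytoskeleton (gene ID 12323, chromosome 11, 5969629 to 6066357, GRCm38). Its values were 227.49, 227.10 and 245.69 FPKM in knockout libraries 1, 2 and 3, against 204.89, 193.07 and 213.20 FPKM in wild-type libraries 1, 2 and 3. It was the 1 member in which the genotypes did not overlap, and knockout library 3 was the highest. The means were 233 ± 11 FPKM in the knockout and 204 ± 10 FPKM in the wild type (SD, n = 3 each). The log2 fold change of 0.20 (SE 0.09; 95% confidence interval -0.01 to 0.40) had an unadjusted limma p of 0.0556 and an adjusted p of 0.79. The 2-sided exact permutation p of the 3 against 3 values was 0.1, the smallest this design allows. Leaving out 1 library at a time gave log2 fold changes of 0.16 to 0.23.

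Camk2d and Camk2g encode the delta and gamma subunits, which are expressed widely outside the nervous system as well. Camk2d had 33.29, 31.18 and 38.03 FPKM in the knockout, against 33.87, 26.75 and 24.16 FPKM in the wild type, again for libraries 1, 2 and 3. Wild-type library 1 lay inside the knockout range, and in pair 1 the knockout was slightly the lower. The means of Camk2d were 34.2 ± 3.5 FPKM in the knockout and 28.3 ± 5.0 FPKM in the wild type (log2 fold change 0.27, SE 0.14; limma adjusted p 0.79). Without wild-type library 1 that log2 fold change was 0.41, and without wild-type library 3 it was 0.17. Camk2g was the most even gene of the set, at 79.53, 70.69 and 71.94 FPKM in the knockout and 83.34, 70.40 and 76.22 FPKM in the wild type. The log2 fold change of Camk2g was -0.05 (SE 0.10; 95% confidence interval -0.27 to 0.18), and its sign turned under 3 of 15 alternatives. Camk2d (gene ID 108058) lies on chromosome 3, 126595487 to 126846326, and Camk2g (gene ID 12325) on chromosome 14, 20734873 to 20794157, in GRCm38.

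The summed CaMKII message was compared in the same way. It came to 1106, 977 and 1402 FPKM in knockout libraries 1, 2 and 3, against 996, 863 and 1125 FPKM in wild-type libraries 1, 2 and 3. The sum was higher in the knockout within each pair, but the genotypes overlapped. The share of Camk2a in that sum averaged 70.1 ± 4.2% in the knockout and 68.7 ± 3.0% in the wild type (SD, n = 3 each), a difference smaller than the spread within either genotype. That difference of 1.36 percentage points was -0.92 without knockout library 3 and 3.22 without knockout library 2. Camk2b supplied 20.4 ± 2.9% in the knockout and 20.6 ± 1.7% in the wild type. The share of Camk2g was lower in the knockout within all 3 pairs, with 7.19, 7.23 and 5.13% in knockout libraries against 8.37, 8.16 and 6.78% in wild-type libraries. Those ranges still overlapped, since wild-type library 3 lay below knockout libraries 1 and 2. Camk2d gave 2.97 ± 0.24% in the knockout and 2.88 ± 0.65% in the wild type. The ratio of Camk2a to Camk2b, which bears on the subunit makeup of the holoenzyme, was 3.37, 2.86 and 4.26 in the knockout and 3.29, 2.97 and 3.81 in the wild type. It was highest in library 3 and lowest in library 2 of both genotypes. The knockout mean was 0.14 above the wild-type mean, but the difference was -0.24 without knockout library 3 and -0.05 without wild-type library 2.

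**Figure D3:**
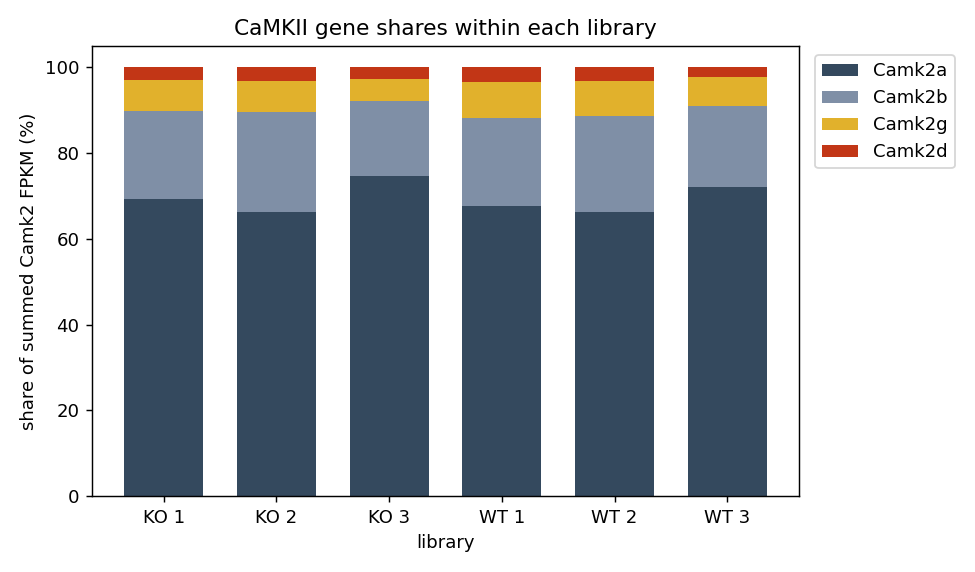
Share of each CaMKII gene in the summed Camk2 FPKM (y axis, percent) for each library, Mettl5 KO (KO 1 to KO 3) left of wild type (WT 1 to WT 3). Camk2a takes between 66.3% (KO 2) and 74.6% (KO 3), and its share is highest in library 3 of each genotype.

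Camk4 and the CaMKI genes form the second branch. Camk4, a nuclear kinase of cerebellar granule cells and of some forebrain neurons (gene ID 12326, chromosome 18, 32934941 to 33195767, GRCm38), had the largest log2 fold change of the set, a rank it did not keep with array weights or without knockout library 2. It was at 24.32, 48.91 and 34.23 FPKM in knockout libraries 1, 2 and 3, against 21.15, 21.84 and 27.69 FPKM in wild-type libraries 1, 2 and 3. Knockout library 2 was far above the rest, and knockout library 1 lay below wild-type library 3, so the genotypes overlapped. The means were 35.8 ± 12 FPKM in the knockout and 23.6 ± 3.6 FPKM in the wild type (SD, n = 3 each), a ratio of 1.52. The log2 fold change was 0.54 (SE 0.24; 95% confidence interval -0.03 to 1.10; limma adjusted p 0.79). Without knockout library 2, which held the cerebellar markers, it was 0.29, and without knockout libraries 2 and 3 it was 0.05. Leaving out knockout library 1 gave 0.78 and leaving out wild-type library 3 gave 0.66. The part of cerebellar tissue in the Camk4 difference was not tested.

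Camk1, the founding member of the CaMKI group (gene ID 52163, chromosome 6, 113334124 to 113343922, GRCm38), was the lower in the knockout on average. It had 31.68, 25.92 and 31.26 FPKM in the knockout and 34.66, 32.18 and 30.87 FPKM in the wild type for libraries 1, 2 and 3. Wild-type library 3 sat among the knockout values. The log2 fold change was -0.14 (SE 0.10; limma adjusted p 0.821), and without knockout library 2 it was -0.05. Across the 6 libraries Camk1 ran opposite to Camk4 (Pearson r = -0.92, n = 6 libraries), with knockout library 2 lowest in the one and highest in the other. These libraries share their genotype groups and paired numbers, so the coefficient is a description.

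Camk1d encodes CaMKI delta, another substrate of the upstream kinases (gene ID 227541, chromosome 2, 5293457 to 5714860, GRCm38). It had 31.96, 26.47 and 36.26 FPKM in knockout libraries 1, 2 and 3, against 27.16, 20.63 and 27.55 FPKM in wild-type libraries 1, 2 and 3. The knockout was higher in each pair, by 0.23, 0.34 and 0.38 on the log2(FPKM + 1) scale, while knockout library 2 lay inside the wild-type range. The means were 31.6 ± 4.9 FPKM in the knockout and 25.1 ± 3.9 FPKM in the wild type (SD, n = 3 each). The log2 fold change was 0.32 (SE 0.15; 95% confidence interval -0.03 to 0.67; limma adjusted p 0.79). Leaving out knockout library 3 gave 0.22, leaving out wild-type library 2 gave 0.19, and leaving out knockout libraries 2 and 3 together gave 0.35.

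Over the 6 libraries Camk1d was the member whose profile was closest to both major CaMKII genes, with Pearson r = 0.90 to Camk2a and 0.90 to Camk2b (n = 6 libraries). Sequences before a start of each gene, Camk1d and Camk2b, are therefore shown. Each line gives the 250 bases before a transcription start listed by RefSeq, 5′ to 3′ on the minus strand of GRCm38.p6, with the GC box GGGCGG or its reverse complement in capitals. The Camk2b window is chr11:6065749-6065998, which lies wholly inside the outer bounds of the gene, so this start is not its outermost. The Camk1d window is chr2:5714763-5715012 and overlaps the end of the gene's outer bounds. RefSeq lists a second Camk1d start, whose window is not printed.
Camk2b: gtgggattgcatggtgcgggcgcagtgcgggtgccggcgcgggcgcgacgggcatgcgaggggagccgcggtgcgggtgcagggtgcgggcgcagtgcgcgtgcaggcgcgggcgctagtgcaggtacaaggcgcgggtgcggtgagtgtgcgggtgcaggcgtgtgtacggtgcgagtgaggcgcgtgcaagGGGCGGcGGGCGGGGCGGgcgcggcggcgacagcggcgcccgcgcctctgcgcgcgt
Camk1d: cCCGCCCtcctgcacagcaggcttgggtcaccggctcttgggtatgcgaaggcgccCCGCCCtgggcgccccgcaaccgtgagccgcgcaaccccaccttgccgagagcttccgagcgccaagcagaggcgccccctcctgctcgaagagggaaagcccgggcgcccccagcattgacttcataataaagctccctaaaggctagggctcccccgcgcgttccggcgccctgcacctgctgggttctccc

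The Camk2b window was 78.4% G and C and held 3 GC boxes, the last 2 overlapping, while the printed Camk1d window was 69.2% G and C and held 2. The second Camk1d window, at chr2:5676047-5676296, was 48.4% G and C and held 1 GC box and 2 E-boxes. Over the 32851 RefSeq promoter windows of the same length the median was 52.4%, and 32.7% held a GC box on either strand. The core of the cAMP response element, TGACG, was in neither printed window, against 17.8% of all windows. The full element TGACGTCA was in neither, against 1.55%, and TATAAA was also in neither, against 12.4%. The E-box CANNTG was found once in the printed Camk1d window and not in that of Camk2b, against 66.2% of all windows. Among the windows of other members, the core TGACG occurred once each for Camk1 and Camkk1. Only 6 members had a window, and Camk2a, Camk2g and Camk4 had none, so they were not searched. These are letter matches in short windows, not binding sites.

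Camkk1 and Camkk2 encode the upstream kinases. Camkk1 (gene ID 55984, chromosome 11, 73016043 to 73042073) had 41.54, 38.60 and 36.96 FPKM in knockout libraries 1, 2 and 3, against 41.47, 32.43 and 29.05 FPKM in wild-type libraries 1, 2 and 3. In pair 1 the values were nearly equal, and wild-type library 1 lay inside the knockout range. The means of Camkk1 were 39.0 ± 2.3 FPKM in the knockout and 34.3 ± 6.4 FPKM in the wild type (log2 fold change 0.19, SE 0.13; limma adjusted p 0.81). Without wild-type library 1 its log2 fold change was 0.34, and without wild-type library 3 it was 0.09. Camkk2 (gene ID 207565, chromosome 5, 122718380 to 122779522) had 38.31, 56.35 and 47.92 FPKM in the knockout and 33.65, 47.33 and 48.43 FPKM in the wild type. Library 1 was the lowest in both genotypes, and the genotypes overlapped. Camkk2 had a log2 fold change of 0.14 (SE 0.18; 95% confidence interval -0.29 to 0.56; limma adjusted p 0.906), and its sign turned under 3 of 15 alternatives. It was 0.28 without knockout library 1, 0.0089 without knockout library 2 and -0.03 without wild-type library 1.

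Camkk1 per unit of Camkk2 was 1.08, 0.685 and 0.771 in the knockout, against 1.23, 0.685 and 0.600 in the wild type, for libraries 1, 2 and 3. Only in library 1 of each genotype was Camkk1 the higher of the pair. The ratio of Camk4 to Camk1 was higher in the knockout within each pair, at 0.768, 1.89 and 1.10 in the knockout against 0.610, 0.679 and 0.897 in the wild type. Knockout library 1 lay inside the wild-type range.

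The order of the libraries by Camk2a was that of the summed forebrain excitatory neuron markers, which were 638.6, 598.1 and 872.6 FPKM in knockout libraries 1, 2 and 3 and 618.5, 497.8 and 674.2 FPKM in wild-type libraries 1, 2 and 3. Camk4 did not follow the granule cell markers outside knockout library 2. Knockout library 3 had the lowest granule cell sum, 25.0 FPKM, with the second highest Camk4, and wild-type library 2 had the second highest sum, 43.5 FPKM, with Camk4 at 21.84 FPKM. Most of the forebrain excitatory neuron marker sum came from Slc17a7, so ratios to this sum rest mainly on that gene. Slc17a7 had 484.94 to 704.81 FPKM in the knockout and 402.72 to 524.89 FPKM in the wild type. Taken per unit of the forebrain excitatory neuron marker sum, Camk2a was 1.20, 1.08 and 1.20 in the knockout and 1.09, 1.15 and 1.20 in the wild type. These ratios averaged 1.16 ± 0.066 in the knockout and 1.15 ± 0.057 in the wild type (SD, n = 3 each), a difference smaller than their spread. Camk2b per unit of the same sum was 0.356, 0.380 and 0.282 in the knockout and 0.331, 0.388 and 0.316 in the wild type, with overlap. Camk1d per unit was 0.050, 0.044 and 0.042 in the knockout and 0.044, 0.041 and 0.041 in the wild type. Within each pair this Camk1d ratio was the higher in the knockout, by little in pair 3 (0.0416 against 0.0409), and the genotypes overlapped. The oligodendrocyte sums were 5610.0, 5901.4 and 2194.7 FPKM in the knockout and 7245.1, 7883.2 and 6656.7 FPKM in the wild type. The part of regional or cell type makeup in these kinase differences was not tested.

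**Figure D4:**
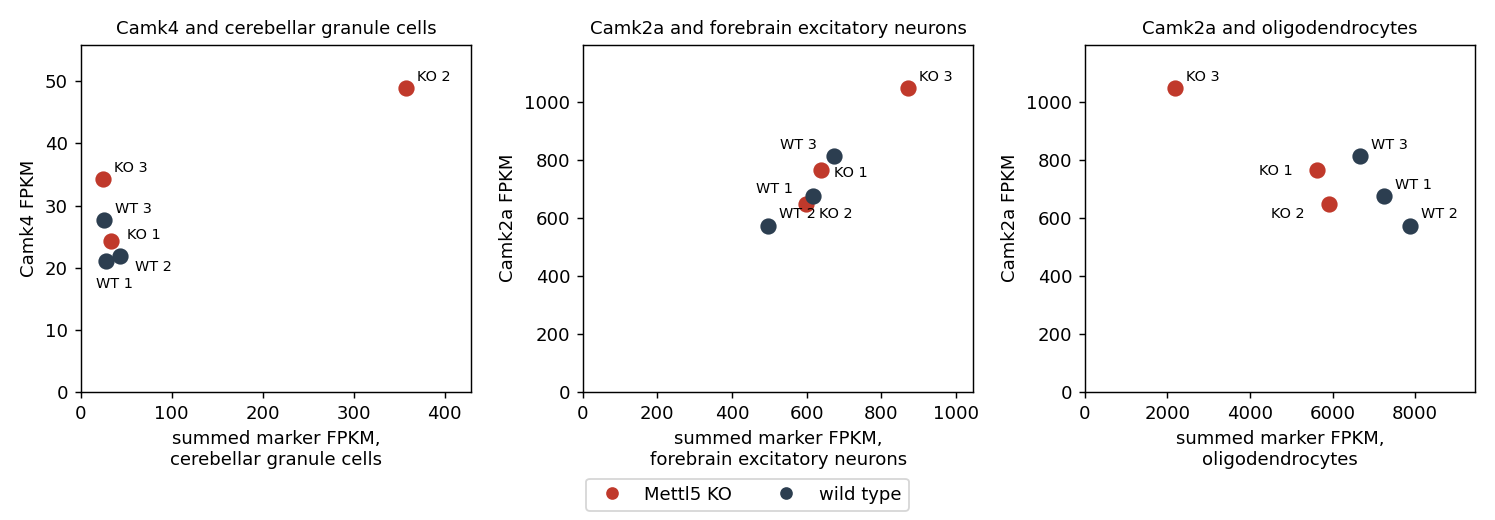
FPKM of Camk4 or Camk2a (y axes) against the summed FPKM of a marker list (x axes) in each library, Mettl5 KO in red and wild type in dark blue. KO 2 stands alone at 357.7 FPKM of granule cell markers with 48.91 FPKM of Camk4, and KO 3 has both the highest forebrain marker sum (872.6 FPKM) and the highest Camk2a (1046.50 FPKM).

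The genes around the kinases were described from 8 lists, and 0 genes on them passed the test. The endogenous CaMKII inhibitor Camk2n1 had 494 ± 15 FPKM in the knockout and 474 ± 20 FPKM in the wild type, and Camk2n2 had 123 ± 17 FPKM in the knockout and 128 ± 22 FPKM in the wild type. Neither passed (limma adjusted p 0.914 and 0.965). Camk2n1 per unit of summed CaMKII message was lower in the knockout within all 3 pairs, at 0.456, 0.488 and 0.357 in the knockout against 0.488, 0.522 and 0.432 in the wild type, with overlap between the genotypes. Camk2n1 itself and the CaMKII sum were both higher in the knockout within all 3 pairs.

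The list for proteins that hold calmodulin at low calcium, called calmodulin-sequestering, had 4 members. Whether each of their products holds calmodulin was not examined. All 4 had negative log2 fold changes (median -0.18), against 6559 of the 12885 genes tested, with 0 called. Of the 4, Pcp4l1 was the lower in all 3 pairs and Gap43, Pcp4 and Nrgn in 2. Nrgn, the gene of neurogranin, had 877 ± 170 FPKM in the knockout and 920 ± 120 FPKM in the wild type. Pcp4l1 had 69.4 ± 30 FPKM in the knockout and 91.8 ± 26 FPKM in the wild type (log2 fold change -0.46, SE 0.37; limma adjusted p 0.836) and was at 37.27 FPKM in knockout library 3, its lowest value. Of the other CaMK-family and related kinases, 13 of 17 were tested and 0 were called (median log2 fold change 0.08). The doublecortin-like kinase gene Dclk2 had 21.76, 21.62 and 22.17 FPKM in the knockout and 18.78, 19.37 and 20.34 FPKM in the wild type, with no overlap (log2 fold change 0.16, SE 0.08; limma adjusted p 0.79). Of the 13 tested, 1 lay wholly above and 0 wholly below the wild type, against 5.48% and 6.43% of all genes tested. Camk1g, a further CaMKI gene, had 25.3 ± 1.8 FPKM in the knockout and 21.6 ± 5.1 FPKM in the wild type.

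CaMKII scaffolds and synaptic substrates gave 0 calls among 20 genes (median log2 fold change 0.08). At an unadjusted p under 0.05 there was 1 of the 20, on the lower side, where 3.69% of all genes stood. It was Arc, an activity-induced gene of the postsynapse. Arc had 42.90, 20.61 and 52.79 FPKM in knockout libraries 1, 2 and 3, against 67.15, 76.79 and 56.86 FPKM in wild-type libraries 1, 2 and 3, and the genotypes did not overlap (log2 fold change -0.86, SE 0.33; limma adjusted p 0.79). Gria1, the AMPA receptor subunit gene whose product CaMKII phosphorylates, had 104 ± 10 FPKM in the knockout and 88.0 ± 11 FPKM in the wild type, also without overlap (limma adjusted p 0.79). Actn4, an actinin gene, had 43.4 ± 2.4 FPKM in the knockout and 39.3 ± 1.1 FPKM in the wild type, again without overlap. Of all 20 genes, 2 lay wholly above and 1 wholly below the wild type, against 5.48% and 6.43% of all genes tested.

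Nuclear targets of CaMKIV and CaMKI numbered 14, with 0 called and 2 in each direction at an unadjusted p under 0.05, where 2.37% of all genes were higher and 3.69% lower. On the higher side were Mef2d, an activity-regulated transcription factor gene, with 65.2 ± 3.6 FPKM in the knockout and 54.6 ± 4.2 FPKM in the wild type, and the CREB coactivator gene Crtc1, with 43.8 ± 4.2 FPKM in the knockout and 36.8 ± 1.5 FPKM in the wild type. On the lower side were Hdac5, a histone deacetylase gene whose product leaves the nucleus on CaMK phosphorylation, with 35.7 ± 3.2 FPKM in the knockout and 42.0 ± 1.1 FPKM in the wild type, and Crem, a relative of CREB, with 4.87 ± 0.27 FPKM in the knockout and 5.80 ± 0.051 FPKM in the wild type. None of these 4 genes overlapped between genotypes, and each had a limma adjusted p of 0.79. They were named for a low p, which favours separated values. Of all 14 genes, 3 lay wholly above and 2 wholly below the wild type, against 5.48% and 6.43% of all genes tested.

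Among AMPK subunits, 6 of 7 were tested and 0 called. Of the 6, 2 had positive and 4 negative log2 fold changes (median -0.022). The subunit gene Prkab1 had 9.59 ± 1.4 FPKM in the knockout and 7.44 ± 1.6 FPKM in the wild type, with overlap (limma adjusted p 0.79). Calcineurin, the calcium-activated phosphatase that opposes CaMKII, and its regulators gave 0 calls among 8 tested of 9 listed genes. The calcineurin-binding protein gene Cabin1 had 16.0 ± 1.4 FPKM in the knockout and 13.7 ± 1.0 FPKM in the wild type, and the catalytic subunit gene Ppp3cc had 11.6 ± 0.65 FPKM in the knockout and 9.84 ± 1.1 FPKM in the wild type. Both overlapped between genotypes (limma adjusted p 0.79 each). Ppp3ca, its main catalytic subunit gene in brain, had 286 ± 10 FPKM in the knockout and 260 ± 6.9 FPKM in the wild type. The calcineurin inhibitor gene Rcan1 had 20.7 ± 0.23 FPKM in the knockout and 23.3 ± 1.4 FPKM in the wild type. Ppp3ca and Rcan1 were without overlap (limma adjusted p 0.799 for Ppp3ca and 0.79 for Rcan1). Of the 8 tested, 1 lay wholly above and 1 wholly below the wild type, against 5.48% and 6.43% of all genes tested. Phosphatases of the kinases gave 0 calls among 9 (median log2 fold change -0.0016). Ppm1f, which encodes a phosphatase that removes CaMKII autophosphorylation, had 11.67, 10.28 and 13.12 FPKM in the knockout against 13.64, 16.05 and 13.14 FPKM in the wild type, with knockout library 3 just below wild-type library 3 (log2 fold change -0.27, SE 0.12; limma adjusted p 0.79).

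**Figure D5:**
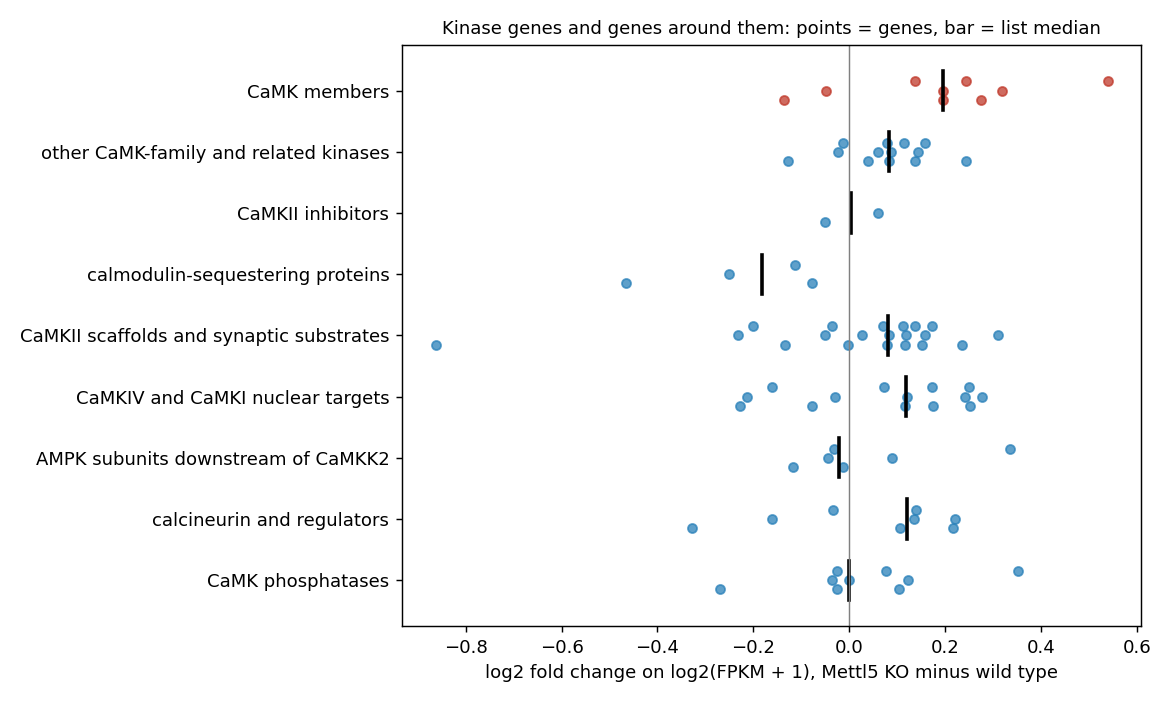
Genotype difference in log2(FPKM + 1), Mettl5 KO minus wild type (log2 units), for each tested gene of the 9 kinases and of the 8 lists around them; points are genes and black bars list medians. The kinase median is 0.20, the median of the calmodulin-sequestering list -0.18, and Arc lies farthest to the left at -0.86.

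Across the 6 libraries, the genes most like Camk2a among 12546 compared were Celf2 (Pearson r = 0.998), Slc25a23 (r = 0.995) and Srcin1 (r = 0.995). Those most like Camk4 were Sphkap (r = 0.997), Slc1a3 (r = 0.993) and Pan2 (r = 0.988). Slc1a3, a glutamate transporter gene of astrocytes, had 139.42, 210.88 and 177.80 FPKM in knockout libraries 1, 2 and 3, against 127.51, 130.24 and 157.61 FPKM in wild-type libraries 1, 2 and 3, in the same order as Camk4. The 5 astrocyte markers, Slc1a3 among them, had a median log2 fold change of -0.24. At an unadjusted limma p under 0.05, 0 of them were higher and 2 lower in the knockout, against 2.37% and 3.69% of all genes tested. With 6 points that are the same libraries for every gene, and 12546 genes searched, high coefficients of this kind describe these libraries only.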

How the data were processed

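Messenger RNA of 3 Mettl5-/- and 3 wild-type brain samples was captured on oligo(dT) beads, per the labels' protocols. The authors deposited FPKM per gene, 1 column per sample with 2 decimals, per the file headers. Bowtie2, RSEM and the mm10 build were used, per the submitters' processing notes; versions, annotation release and strand setting are not stated in those notes. RSEM divides ambiguous fragments by estimated probability. At most 0.12% of any member's distinct 31-base stretches (GENCODE M21 transcripts, GRCm38) occurred in another member or a calmodulin gene. Sums of FPKM per library ran from 350727 to 377334. Low values, written to 2 decimals, did not resolve single reads, so depth is unknown and no counting interval is given. No 2 libraries were identical.

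The 12885 of 18491 genes whose mean reached 1 FPKM were tested with limma 3.58.1 in R 4.3.3 (lmFit, eBayes with trend and robust prior) on log2(FPKM + 1), 2-sided, with Benjamini-Hochberg adjustment over all genes and a threshold of 0.05. Fold changes of low genes are understated on this scale. The steps were tested on simulated data. Python 3.11.15, pandas 2.3.3, numpy 2.4.6, SciPy 1.17.1 and matplotlib 3.10.9 were used for tables, exact permutation and figures. Symbols damaged by a spreadsheet (29) were filled by gene ID. Coordinates are RefSeq's for GRCm38, the assembly that mm10 names. Deviations from the group means correlated at 0.485, 0.413 and 0.539 between same-numbered libraries, and the samples were treated as paired by number on that ground, not from the labels.

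The members and lists were chosen with earlier results of these data known. Named genes, with any called gene of a list, were the 9 members, Mettl5, up to 4 genes of lowest unadjusted p per list, both CaMKII inhibitors, and the 3 genes most correlated with Camk2a and with Camk4, leaving out predicted symbols; 2 genes and 1 list that the rule took in are not reported here. Pcp2 was named as a marker at 0, Slc17a7 as the largest part of a marker sum, and Nrgn and Slc1a3 fall under these rules. Ratios to the forebrain marker sum were added after the values were seen. Alternatives were a pseudocount of 0.1, no filter or one at 5 FPKM, rescaling to a common sum, quantile normalization, array weights, eBayes without trend, the replicate block, and leaving out each library.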

Additional observations from a re-analysis of the deposited data

How the results depend on the processing

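Under 15 alternatives, 0 of the 9 kinase genes were called in any, with adjusted p-values from 0.285 to 1.0, and 129 member values kept their direction. The other 6 were Camk2g and Camkk2, with log2 fold changes of 0.014 and -0.010 with array weights, 0.014 and -0.027 without wild-type library 1, and 0.056 and -0.15 without knockout libraries 2 and 3. Leaving out each library in turn gave -0.11 to 0.014 for Camk2g and -0.027 to 0.28 for Camkk2. That last setting was chosen after seeing the data, leaves 1 knockout library, assumed to vary like the wild type, and gave Camk2a 0.17, Camk2b 0.16 and Camk4 0.05. Over all genes, limma called 0, and leaving out each library in turn gave 0 to 1, the 1 being Rps27rt without wild-type library 3. Without a filter 1 gene was called, Hist2h2aa2, listed at 0 in all knockouts. The unadjusted p fell under 0.05 for 780 genes as deposited, 1842 with the replicate block, 1361 with array weights and 316 without wild-type library 2. The replicate block changed no call. Unknown depth and 3 samples a group limit the precision.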
